A study of Homo sapiens with 6 samples.

Results

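Genes of glucose breakdown and genes switched on by low oxygen were followed in cholangiocarcinoma cells given regorafenib. The 36 genes chosen are glucose and lactate transporters, glycolytic enzymes, regulators of glycolytic flux, other targets of the hypoxia-inducible factors (HIF) and HIF1A itself. A gene was measured through probe sets annotated to that symbol alone, which gave 34 of the 36 genes and 79 probe sets, out of 19775 genes and 41091 probe sets on the array. SLC16A3 and CA9 were not analysed here. The 34 genes comprise 21 glycolytic genes, 12 other HIF targets and HIF1A.

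RNA came from HuCCT1 (HuccT1 in the labels), a bile duct carcinoma line, and from KKU-100, a poorly differentiated cholangiocarcinoma line. Each line had 1 Affymetrix expression array on solvent, 1 on low-dose and 1 on high-dose regorafenib, an oral inhibitor of several kinases that include the VEGF receptors. The labels give the doses as 1 μM and 10 μM, other than in the paper, and they are named low and high dose below. The labels also describe all of these cells as stably transduced and selected with puromycin, with no construct named, so that a transgene shared by the groups could not be stated. Nothing says that the arrays came from separate cultures, and p-values then measure only the spread between these arrays. No hypoxic sample is among the 6 arrays.

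HIF-1 pairs an oxygen-sensitive alpha subunit, encoded by HIF1A, with the constant partner ARNT, and binds a short DNA core in the control regions of its targets. With oxygen present, prolyl hydroxylases of the EGLN family mark the alpha subunit for destruction, so its activity is set largely at the protein level and not by its mRNA. Its targets include glucose transporters and most steps of glycolysis, the enzymes that turn glucose into pyruvate and lactate, and tumours often run this pathway at a high rate even in oxygen.

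The promoter matches of the 5 genes with the largest changes in the same direction at both doses of a line are shown because these genes carry most of the findings below. The capitals mark the core of the hypoxia response element, searched as ACGTG and GCGTG on both strands in windows from 250 bases before to 50 after each RefSeq start on GRCh38.p14. CACGTG reads the same on both strands and holds a match on each. Each line gives the match with the neighbouring bases, 5′ to 3′ on the strand of the gene. For HK2 and PFKFB3, which have 2 windows each, the window with the most matches was used. The 2 windows of KDM3A held 1 match each, and the one with the lower start position was used.
SLC2A1, chr1:42958829-42958853, minus strand: gcaacagcgaGCGTGccggtcgcta
HK2, chr2:74834966-74834991, plus strand: ttgctgcgccCACGTGggagggagcc
HK2, chr2:74835011-74835036, plus strand: ccggcgagagCACGTGgagagaatcg
HK2, chr2:74835053-74835077, plus strand: ctccgctgccGCGTGgggccgccgg
HK2, chr2:74835090-74835114, plus strand: ctcgcggaccGCGTGtaggagacga
PFKFB3, chr10:6202814-6202839, plus strand: ccctcctcccCACGTGgaagggggct
ANKRD37, chr4:185396669-185396694, plus strand: cgccgggctcCACGTGccagtgtttg
ANKRD37, chr4:185396688-185396712, plus strand: gtgtttgtgtACGTGcggccgtggc
KDM3A, chr2:86441335-86441359, plus strand: gggaggctgtGCGTGtcttgtgaga
Among the members, 30 had a window in the reference table, and 27 of these held a match in at least 1 window, as did 19 of 20 glycolytic members and 7 of 9 other HIF targets. Of all genes with a window, 52.4% held one. Over single windows, 66.7% of the 54 windows of members and 48.4% of the 35116 windows of all genes held a match. A match is a description of the sequence and not of binding.

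Signals are on the deposited linear scale in arbitrary units, and each gene is shown by its brightest probe set. A gene was counted past 1.5-fold against the solvent array of its line if the average of its log2 signals in that line was at or above the 50th percentile of all probe sets, near a signal of 29. This filter was passed by 33 of the 34 members in each line. BNIP3, a mitochondrial protein of autophagy, stayed below it, with signals of 9.96, 8.51 and 9.57 on the solvent, low-dose and high-dose arrays of HuCCT1 and 8.41, 7.47 and 9.06 on those of KKU-100. The 2 doses were set against the same solvent array in each line, and because these are single arrays without replicates, fold changes carry no p-value. A bulk signal cannot tell fewer expressing cells from less RNA per cell.

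The 6 arrays had medians from 28.8 to 29.3. KRT8 and KRT18, keratins of simple epithelia, were high in both lines, but KRT19 and EPCAM, defining markers of bile duct epithelium, were below the filter in KKU-100, with KRT19 at 9.47, 8.62 and 11.1 on the solvent, low-dose and high-dose arrays. All 7 biliary epithelial markers passed the filter in HuCCT1 and 5 of 7 in KKU-100, against 12789 and 12694 of all 19775 genes. CDH1 passed in KKU-100 through its treated arrays, with 22.9 on solvent, 76.7 under low dose and 79.9 under high dose. KRT7 passed in both lines, with 10354 on the solvent array of HuCCT1 and 917 on that of KKU-100.

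In HuCCT1, a small set of glycolytic genes was lower under regorafenib, and the main chain of enzymes stayed within 1.5-fold with the brightest probe sets. HK2 and SLC2A1, the inducible hexokinase and the main glucose transporter GLUT1, had the largest falls, with log2 fold changes of -1.87 and -1.67 under high dose. ANKRD37, an ankyrin repeat protein known as a HIF target, fell at both doses as well. In KKU-100, HK2 and SLC2A1 stayed within 1.5-fold, while PFKFB3, the kinase that makes the strongest activator of phosphofructokinase, KDM3A, a histone demethylase, and ANKRD37 fell at both doses.

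**Figure D1:**
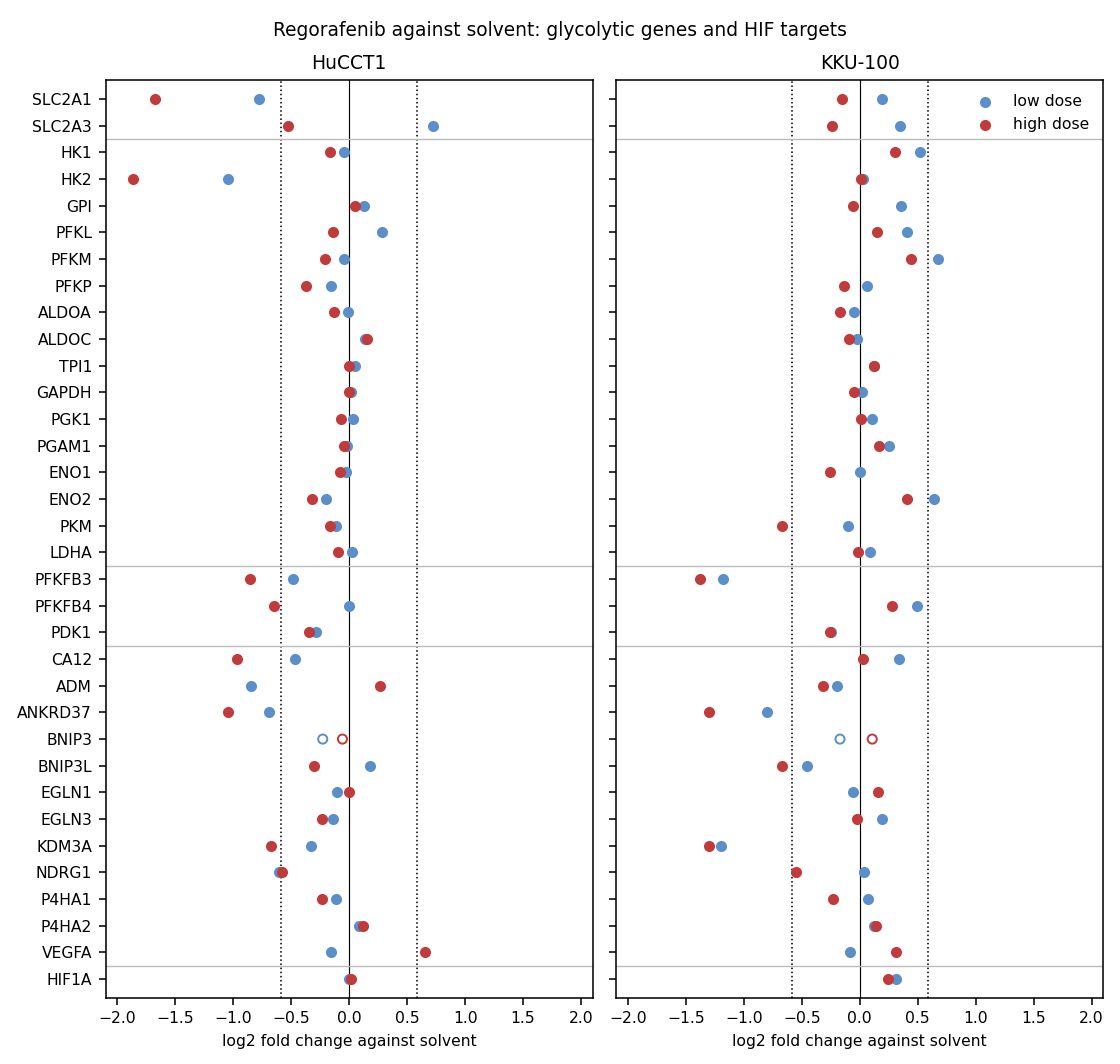
Log2 fold change against the solvent array of the line (x axis) for the 34 members (y axis), in HuCCT1 (left) and KKU-100 (right); blue points are the low dose and red points the high dose, 1 array each, open points are below the level filter, dotted lines mark 1.5-fold and grey lines part transporters, enzymes, flux regulators, other HIF targets and HIF1A. HK2 and SLC2A1 lie farthest to the left in HuCCT1 and near 0 in KKU-100, and ANKRD37, KDM3A and PFKFB3 lie to the left of the cutoff in both lines under high dose.

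By count, 5 of 33 members were lower and 1 higher under low dose in HuCCT1, against 3.32% and 3.68% of the 12789 genes past the filter. At the high dose in HuCCT1, 7 were lower and 1 higher, against 6.44% and 8.23%. In KKU-100 under low dose, 3 were lower and 2 higher, against 7.32% and 9.75% of 12694 genes. With the high dose, KKU-100 had 5 lower and 0 higher, against 4.86% and 9.44%.

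A fall past 1.5-fold at both doses was seen for 3 members in HuCCT1 (ANKRD37, HK2 and SLC2A1), against 1.93% of genes, and for 3 in KKU-100 (ANKRD37, KDM3A and PFKFB3), against 3.58%. No member rose past 1.5-fold at both doses in either line, against 2.08% of genes in HuCCT1 and 5.33% in KKU-100. The 3 members lower under high dose in both lines were ANKRD37, KDM3A and PFKFB3, against 0.989% of the 12033 genes past the filter in both. At the low dose ANKRD37 alone was lower in both lines, against 0.889%.

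The 2 glucose transporters behaved differently. The SLC2A1 signal was 1156, 674 and 363 on the solvent, low-dose and high-dose arrays of HuCCT1 and 675, 771 and 608 on those of KKU-100. It fell with each dose in HuCCT1, to 0.583 and 0.314 times the solvent signal, and lay between 608 and 771 in KKU-100. The log2 fold change came to -0.78 (low dose) and -1.67 (high dose) in HuCCT1 and 0.19 (low dose) and -0.15 (high dose) in KKU-100. A dimmer probe set of SLC2A1 gave -0.87 and -1.85 in HuCCT1.

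SLC2A3 encodes GLUT3, a transporter with high affinity for glucose. Its signal was 160.2, 265 and 111 on the solvent, low-dose and high-dose arrays of HuCCT1 and 2116, 2698 and 1792 on those of KKU-100, with every KKU-100 array above every HuCCT1 array. In HuCCT1 it rose under low dose, by a log2 of 0.72, and stood at -0.53 under high dose, inside the cutoff. The other 2 probe sets of the gene gave 0.49 and 0.35 under low dose, inside the cutoff, and -1.03 and -1.06 under high dose, past it. In KKU-100 the log2 fold change was 0.35 (low dose) and -0.24 (high dose), and the other 2 probe sets gave 0.77 and 0.68 under low dose, past the cutoff.

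Among the 16 glycolytic enzymes, HK2 was the only one past 1.5-fold in HuCCT1 with the brightest probe sets. Its signal was 841, 408 and 231 on the solvent, low-dose and high-dose arrays of HuCCT1 and 899, 917 and 904 on those of KKU-100. The HuCCT1 arrays stepped down with dose, and the KKU-100 arrays lay within 899 to 917. The log2 fold change was -1.04 (low dose) and -1.87 (high dose) in HuCCT1 and 0.03 (low dose) and 0.01 (high dose) in KKU-100. Of its 2 dimmer probe sets, 1 passed the filter in HuCCT1 with -0.76 and -1.64, and in KKU-100 they gave 0.80 and 0.89 under low dose, above the cutoff, and 0.26 and 0.24 under high dose.

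HK1, the hexokinase most tissues share, had signals of 2132, 2067 and 1899 for HuCCT1 and 1078, 1542 and 1331 for KKU-100, in the order solvent, low dose and high dose, which is kept below. Every HuCCT1 array lay above every KKU-100 array. Log2 fold changes were -0.04 (low dose) and -0.17 (high dose) in HuCCT1 and 0.52 (low dose) and 0.30 (high dose) in KKU-100, all within 1.5-fold.

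PFKM, the muscle-type phosphofructokinase, and ENO2, an enolase found mainly in neurons, were the 2 members that rose under low dose in KKU-100. PFKM had signals of 672, 654 and 581 for HuCCT1 and 533, 850.5 and 725 for KKU-100, and its log2 fold change in KKU-100 was 0.68 (low dose) and 0.45 (high dose). ENO2 had signals of 961, 836 and 767 for HuCCT1 and 587, 914 and 778 for KKU-100, with 0.64 (low dose) and 0.40 (high dose) in KKU-100. In HuCCT1 neither passed the cutoff, with -0.21 for PFKM and -0.32 for ENO2 under high dose.

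PKM, the pyruvate kinase of most cells and tumours, fell in KKU-100 under high dose only. Its signals were 1254, 1162 and 1118 for HuCCT1 and 1781, 1659.6 and 1121 for KKU-100, so that the high-dose array of KKU-100 stood apart from the other 2. Against solvent, PKM had a log2 fold change of -0.10 (low dose) and -0.67 (high dose) in KKU-100 and -0.11 (low dose) and -0.17 (high dose) in HuCCT1. Another PKM probe set, at signals of 33.4 to 85.5 in HuCCT1, gave -0.87 and -1.36 there. That disagreement of 1.19 between the PKM probe sets under high dose was the widest of any member in HuCCT1.

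The other 12 enzymes stayed within 1.5-fold at both doses in both lines with their brightest probe sets. A dim ENO1 probe set, at signals of 31.5 to 50.6 in HuCCT1, gave -0.68 there under high dose, past the cutoff. GAPDH, a common loading control, ranged from 17704 to 18554 over the 6 arrays, close to the highest signals of the arrays (19904 to 20640). LDHA, which makes lactate from pyruvate, had signals of 13463, 13661 and 12570.4 for HuCCT1 and 14499, 15393 and 14334 for KKU-100. PGK1, the first enzyme of the pathway to yield ATP, had 9031, 9257 and 8599 for HuCCT1 and 7579, 8155 and 7614 for KKU-100. LDHA and PGK1 thus stayed within 1.5-fold on the HuCCT1 arrays where HK2 fell. The dimmer PGK1 probe sets gave -0.37 to -0.31 in HuCCT1 under high dose, inside the cutoff, against -0.07 for the brightest.

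ALDOA, the main aldolase, had signals of 7112, 7079 and 6506 for HuCCT1 and 11749.8, 11342 and 10431 for KKU-100. Its brain-type relative ALDOC had 173, 190.1 and 193 for HuCCT1 and 120.3, 119 and 113 for KKU-100. TPI1, triosephosphate isomerase, had 9275, 9597 and 9241 for HuCCT1 and 6476, 7072 and 7069 for KKU-100. In ALDOA the KKU-100 arrays were the higher ones, and in ALDOC and TPI1 the HuCCT1 arrays were.

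PGAM1, a phosphoglycerate mutase, had signals of 7397, 7285 and 7173 for HuCCT1 and 4338, 5153 and 4875 for KKU-100. GPI, which turns glucose 6-phosphate into fructose 6-phosphate, had 2107, 2308 and 2178 for HuCCT1 and 3114, 3977 and 2988 for KKU-100. PFKL, the liver-type phosphofructokinase, had 226, 275 and 205 for HuCCT1 and 289, 383 and 320.3 for KKU-100. None of the 3 had overlapping ranges between the lines, which was not counted over all genes. ENO1 (9614 to 11489) and PFKP (1963 to 2546) did overlap.

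The regulators of glycolytic flux included the clearest shared fall among glycolytic genes. PFKFB3 had signals of 437, 312 and 241 for HuCCT1 and 1054, 466 and 404 for KKU-100, and both treated arrays lay below the solvent array in each line. The log2 fold change was -0.49 (low dose) and -0.86 (high dose) in HuCCT1, past the cutoff under high dose only, and -1.18 (low dose) and -1.38 (high dose) in KKU-100. PFKFB3 has 1 probe set annotated to its symbol alone, of a class that can match several genes.

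PFKFB4, a related enzyme with the same pair of activities, had signals of 262, 261 and 167 for HuCCT1 and 280.0, 393 and 339 for KKU-100. It fell under high dose in HuCCT1, with a log2 of -0.65, and gave 0.49 (low dose) and 0.28 (high dose) in KKU-100, inside the cutoff. PDK1, a kinase that keeps pyruvate out of the mitochondrial pathway, had signals of 390.1, 321 and 307 for HuCCT1 and 219, 184 and 182 for KKU-100. Its log2 fold changes lay between -0.35 and -0.25 in the 4 comparisons with the brightest probe set. A dimmer PDK1 probe set past the filter gave -0.32 (low dose) and -0.43 (high dose) in HuCCT1. In KKU-100 it gave -0.38 (low dose) and -0.68 (high dose), past the cutoff under high dose.

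**Figure D2:**
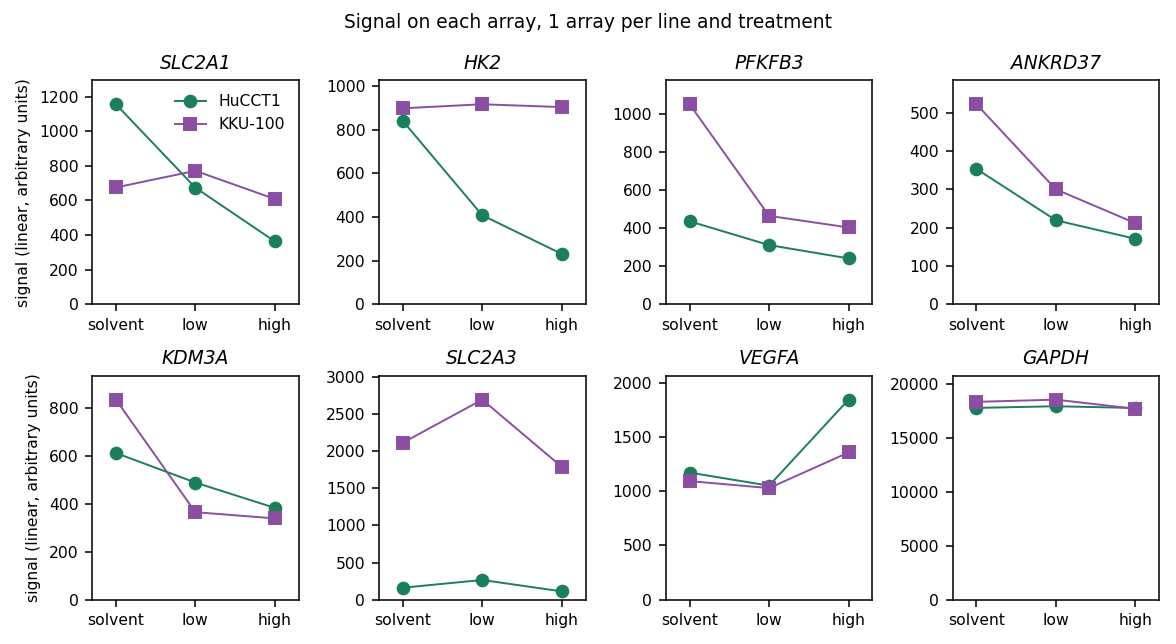
Linear signal in arbitrary units (y axis, from 0) on the solvent, low-dose and high-dose arrays (x axis) of HuCCT1 (green circles) and KKU-100 (purple squares) for 8 members, 1 array per point and no error bar. SLC2A1 and HK2 step down in HuCCT1 and not in KKU-100, PFKFB3, ANKRD37 and KDM3A are lower on every treated array than on solvent, SLC2A3 differs mainly between lines, VEGFA is highest under high dose, and GAPDH stays between 17704 and 18554.

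Of the other HIF targets, ANKRD37 was the most regular, with signals of 353, 219 and 171 for HuCCT1 and 522, 300.0 and 212 for KKU-100. Each line stepped down from solvent to low to high dose. Its log2 fold change was -0.69 (low dose) and -1.05 (high dose) in HuCCT1 and -0.80 (low dose) and -1.30 (high dose) in KKU-100, past the cutoff in all 4 comparisons. A dimmer probe set of the gene lay below the filter, and with the median over both the change in HuCCT1 under low dose came inside the cutoff, at -0.40.

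KDM3A, which removes methyl groups from histone H3 lysine 9, had signals of 613, 489 and 383 for HuCCT1 and 836, 365 and 339 for KKU-100. Its log2 fold change was -0.32 (low dose) and -0.68 (high dose) in HuCCT1 and -1.19 (low dose) and -1.30 (high dose) in KKU-100. In KKU-100 both treated arrays lay below the lowest HuCCT1 array, and 3 of the 4 comparisons passed the cutoff. A dimmer probe set, at signals of 6.42 to 6.88, was below the filter. With the median over both, 2 of the 3 falls came inside the cutoff, at -0.38 in HuCCT1 under high dose and -0.58 in KKU-100 under low dose.

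CA12, a carbonic anhydrase at the cell surface that helps to control pH, had signals of 106, 76.5 and 54.1 for HuCCT1 and 376, 474 and 383 for KKU-100. It fell in HuCCT1 under high dose, with -0.97, and gave 0.34 (low dose) and 0.03 (high dose) in KKU-100, inside the cutoff. The 5 CA12 probe sets past the filter in KKU-100 were not of 1 sign. Of those past it in HuCCT1, the 3 dimmer ones gave -0.46, -0.42 and -0.80 under high dose.

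ADM encodes adrenomedullin, a vasodilator peptide. Its signals were 551, 305 and 663 for HuCCT1 and 2219.9, 1938 and 1782 for KKU-100. In HuCCT1 the low-dose array was the lowest and the high-dose array the highest, with log2 fold changes of -0.85 (low dose) and 0.27 (high dose). In KKU-100 the log2 fold change was -0.20 (low dose) and -0.32 (high dose).

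VEGFA, the vascular growth factor whose receptors regorafenib inhibits, was the 1 member that rose under high dose in HuCCT1. Its signals were 1173, 1052 and 1846 for HuCCT1 and 1094, 1029.5 and 1358 for KKU-100, so that the high-dose array was the highest in each line. VEGFA had a log2 fold change of -0.16 (low dose) and 0.65 (high dose) in HuCCT1 and -0.09 (low dose) and 0.31 (high dose) in KKU-100. The other 3 VEGFA probe sets gave 0.22 to 0.49 in HuCCT1 under high dose and -0.36 to -0.09 in KKU-100.

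NDRG1, a stress-responsive gene linked to differentiation, had signals of 199, 131 and 133 for HuCCT1 and 843, 862 and 575 for KKU-100. It fell under low dose in HuCCT1, with -0.61, and was just inside the cutoff of log2 0.58 under high dose, with -0.58. In KKU-100 it gave 0.03 (low dose) and -0.55 (high dose). BNIP3L, a receptor for the removal of mitochondria, had signals of 1215, 1376 and 983 for HuCCT1 and 2107, 1535 and 1326 for KKU-100 and fell under high dose in KKU-100, with -0.67.

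The oxygen-sensing hydroxylases gave mixed readings. EGLN1, the main one, had signals of 1552 to 2071 with its brightest probe set, and log2 fold changes from -0.11 to 0.16. A dimmer probe set gave -1.21 and -0.76 in KKU-100 and another -0.95 and -0.51, so that the direction for EGLN1 in KKU-100 was not settled. EGLN3, a family member that HIF itself induces, had low signals of 42.9, 39.0 and 36.5 for HuCCT1 and 55.4, 63.5 and 54.5 for KKU-100.

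P4HA1 and P4HA2 are collagen prolyl hydroxylases. P4HA1 ranged from 1026 to 1266 over the 6 arrays. P4HA2 had signals of 2529, 2686 and 2742 for HuCCT1 and 1268, 1380.1 and 1393 for KKU-100, the only member to step up with dose in both lines, by at most 0.14. HIF1A had signals of 8666, 8677 and 8776 for HuCCT1 and 8838, 11003 and 10468 for KKU-100, with log2 fold changes of 0.00 (low dose) and 0.02 (high dose) in HuCCT1 and 0.32 (low dose) and 0.24 (high dose) in KKU-100.

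Among 16 members with several probe sets past the filter, all probe sets of a gene had the same sign for 13 and 15 under low and high dose in HuCCT1, and for 14 and 11 in KKU-100. The median width between probe sets of a gene was 0.14 and 0.21 in HuCCT1, with 0.16 and 0.22 for KKU-100.

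**Figure D3:**
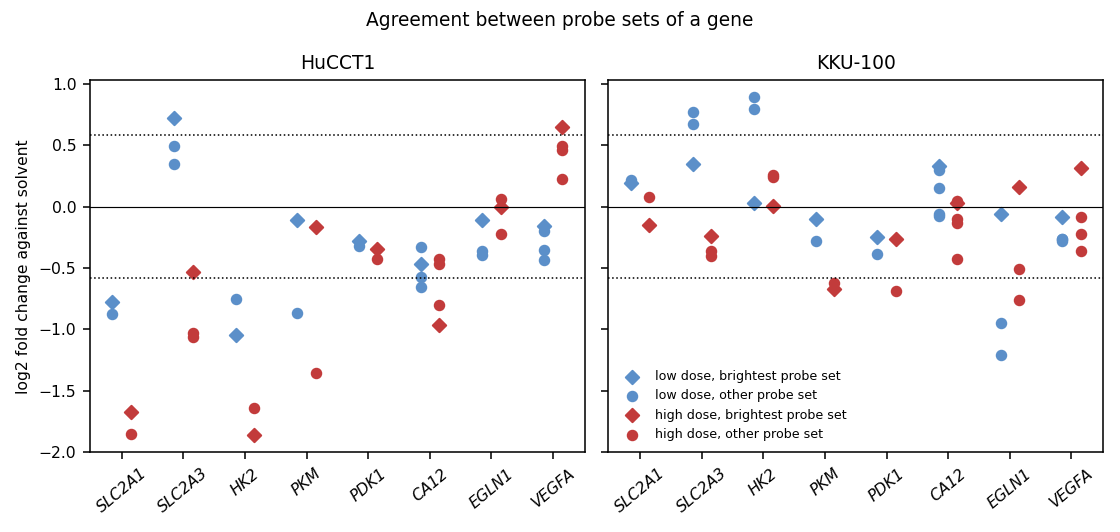
Change in log2 signal from solvent (y axis) for each probe set past the filter of 8 members (x axis) in HuCCT1 (left) and KKU-100 (right); diamonds are the brightest probe set of a gene, circles the others, blue the low and red the high dose, and dotted lines mark 1.5-fold. SLC2A1 and HK2 are below the lower line in HuCCT1 with each probe set shown, PKM differs by 1.19 under high dose in HuCCT1, and EGLN1 by 1.15 under low dose in KKU-100.

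Set against all genes, the 21 glycolytic genes had a median log2 fold change of -0.02 and -0.17 for low and high dose in HuCCT1, and KKU-100 had 0.11 and -0.05. The 11 other HIF targets past the filter had medians of -0.16 and -0.23 in HuCCT1, with -0.06 and -0.23 for KKU-100. All genes past the filter had 0.02 and 0.02 in HuCCT1, with 0.06 and 0.06 for KKU-100. Past 1.5-fold in HuCCT1, 2 of the 21 glycolytic genes and 3 of the 11 other HIF targets were lower under low dose, against 3.32% of genes, and 4 and 3 under high dose, against 6.44%. Higher in HuCCT1 were 1 and 0 under low dose, against 3.68%, and 0 and 1 under high dose, against 8.23%. In KKU-100, 1 glycolytic gene and 2 other HIF targets were lower under low dose, against 7.32%, and 2 and 3 under high dose, against 4.86%. Higher in KKU-100 were 2 and 0 under low dose, against 9.75%, and 0 and 0 under high dose, against 9.44%.

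The order of the arrays was counted as well. The signal stepped down from solvent to low to high dose for 18 of 33 members in HuCCT1, against 19.1% of genes, and for 10 in KKU-100, against 14%. It stepped up for 3 (ALDOC, HIF1A and P4HA2) in HuCCT1, against 21%, and for 1 (P4HA2) in KKU-100, against 20.7%. Many of these steps were small, and they have no replicate check. Counted after the values were seen, 26 members were lower under high than under low dose in HuCCT1, against 50.8% of genes, and 30 in KKU-100, against 51%.

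A response shared by the lines was looked for with limma over the 6 arrays, with the line as a block and 2 residual degrees of freedom. It called 0 of 33 members under low dose and 0 under high dose, against 0% of 12833 genes at each. At an unadjusted p under 0.05, limma had 4 members under low dose (ANKRD37, KDM3A, PFKFB3 and SLC2A3), against 11.2% of genes, and 11 under high dose, against 14.9%. The methods name a t-test for results of at least 3 independent experiments. Paired here over the 2 lines, a t-test had 3 members at each dose at an unadjusted p under 0.05, against 5.80% and 6.11% of genes. After Benjamini-Hochberg adjustment it had 0 members at each dose, against 0% of genes under low dose and 0.00779% under high dose.

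At the high dose, the limma log2 fold change of ANKRD37 was -1.18 (standard error 0.16, adjusted p = 0.0993), with a fall in 2 of 2 lines. For PFKFB3 it was -1.12 (standard error 0.21, adjusted p = 0.146) and for KDM3A -0.99 (standard error 0.24, adjusted p = 0.186), both lower in 2 of 2 lines. VEGFA, higher in 2 of 2 lines with its brightest probe set, had 0.48 (standard error 0.14, adjusted p = 0.23). None passed the threshold of 0.05. Without the solvent array of either line, limma sets both doses against the lone solvent array of the other line, taken to vary like the other groups. Such a fit does not test a response shared by the lines, and its calls are not given.

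Whether the lines differed in their response was tested with the interaction of line and treatment, both doses together. limma called 0 of 33 members, against 0% of 12833 genes, and 3 members (ENO2, HIF1A and HK2) had an unadjusted p under 0.05, against 8.18% of genes. For HK2 the response in KKU-100 minus that in HuCCT1 was 1.47 (standard error 0.50, adjusted p = 0.607). For SLC2A1 it was 1.25 (standard error 0.57, adjusted p = 0.651). This fit takes both doses of a line as replicates, so the step between the doses counts as spread in its standard errors and p-values. With it, the fall of HK2 and SLC2A1 in HuCCT1 was not shown to differ from KKU-100.

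More members were called between the lines than for treatment. In the same limma fit, 14 of 33 members were higher and 7 lower in KKU-100 at an adjusted p under 0.05, against 54.1% of genes called in either direction. SLC2A3 stood 13.0-fold higher in KKU-100, with a log2 difference of 3.70 (standard error 0.16, adjusted p = 5.18e-05). CA12 had 2.43 (standard error 0.22, adjusted p = 5.46e-04), NDRG1 had 2.30 (standard error 0.17, adjusted p = 2.77e-04) and ADM had 2.03 (standard error 0.24, adjusted p = 0.00122). In each of these 4 genes the 3 arrays of KKU-100 lay above the 3 of HuCCT1. SLC2A3 and NDRG1 had only probe sets of a class that can match several genes. How often the lines stay apart in this way over all genes was not counted. A lack of overlap is therefore not shown to be particular to any gene named here.

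PFKFB3 had a limma log2 difference of 0.86 (standard error 0.17, adjusted p = 0.0085), although its array ranges overlapped. Lower in KKU-100 were P4HA2, with -0.98 (standard error 0.07, adjusted p = 2.80e-04), PDK1, with -0.79 (standard error 0.12, adjusted p = 0.00346), and HK1, with -0.64 (standard error 0.13, adjusted p = 0.00984), none with overlapping ranges. HK2 had 1.08 (standard error 0.35, adjusted p = 0.0449), while its difference was 0.10 on the solvent arrays, 1.17 under low dose and 1.97 under high dose. The HK2 call was lost without any 1 of the 4 treated arrays. The other members called higher in KKU-100 had log2 differences from 0.16 (LDHA) to 0.70 (ALDOA), and the others called lower from -0.66 (ALDOC) to -0.20 (PGK1).

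**Figure D4:**
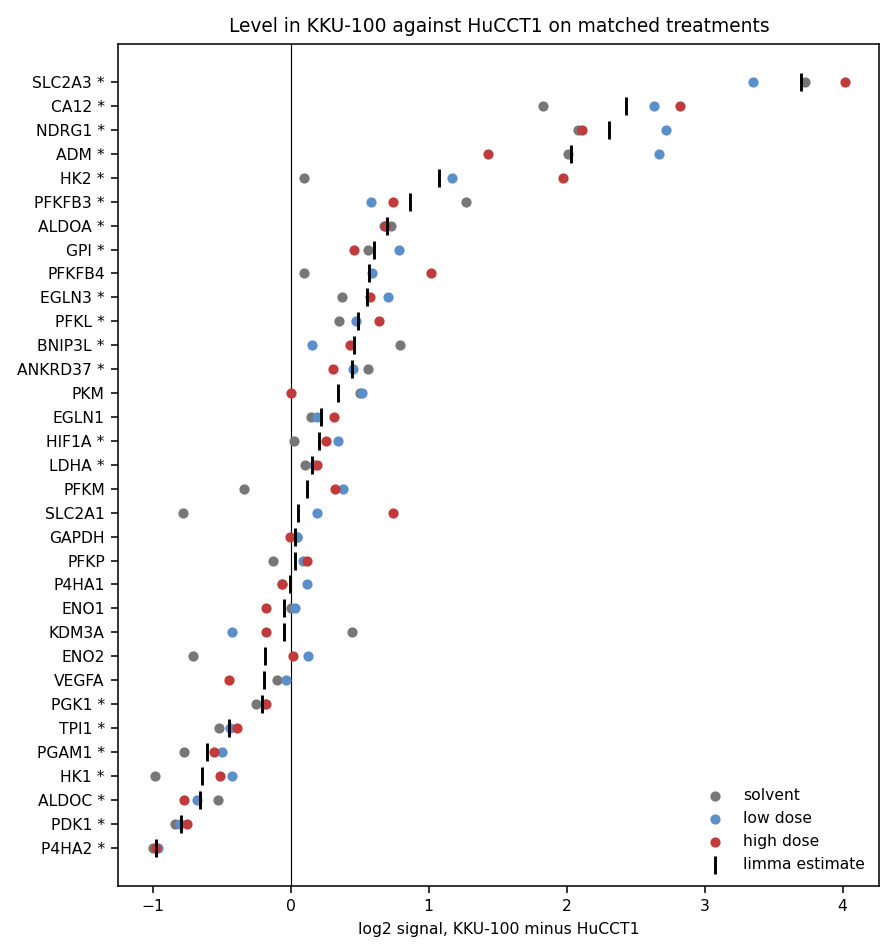
Log2 signal of KKU-100 minus HuCCT1 (x axis) for the 33 members past the filter (y axis), on solvent (grey), low-dose (blue) and high-dose (red) arrays, 1 difference per treatment, with the limma estimate as a black bar and an asterisk for an adjusted p under 0.05. SLC2A3, CA12, NDRG1 and ADM lie far to the right on all 3 treatments, P4HA2 and PDK1 to the left, and HK2 moves from 0.10 on solvent to 1.97 under high dose.

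Other genes of the same pathways gave a mixed account. Of 36 listed further genes of the HIF pathway, 30 passed the filter in HuCCT1 and 33 in KKU-100. In HuCCT1 under low dose, 1 was lower and 4 higher, against 3.32% and 3.68% of all genes past the filter. Under high dose, 4 were lower and 3 higher there, against 6.44% and 8.23%. In KKU-100, 4 were lower and 4 higher under low dose, against 7.32% and 9.75%. Under high dose, 4 were lower and 3 higher in KKU-100, against 4.86% and 9.44%.

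STC1, stanniocalcin, a HIF target, had signals of 382, 260.0 and 176 for HuCCT1 and 1378, 429 and 414 for KKU-100, lower under high dose in both lines. BHLHE40, a repressor that HIF induces, rose in HuCCT1, with 1.00 (low dose) and 1.52 (high dose), and had 0.20 (low dose) and 0.42 (high dose) in KKU-100. DDIT4, an inhibitor of mTORC1 that answers to hypoxia and to other stresses, had 1.03 (low dose) and 1.16 (high dose) in HuCCT1 and -0.04 (low dose) and 0.27 (high dose) in KKU-100. CXCR4, a chemokine receptor, fell under high dose in HuCCT1, with -1.29, and rose under low dose in KKU-100, with 1.47. These HIF targets thus moved in both directions.

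Of 30 listed further glycolysis genes, 20 passed the filter in each line. In HuCCT1, 0 were lower and 1 higher at each dose, against 3.32% and 3.68% of all genes under low dose and 6.44% and 8.23% under high dose. In KKU-100, 3 were lower and 2 higher under low dose, against 7.32% and 9.75%. Under high dose, 1 was lower and 3 higher in KKU-100, against 4.86% and 9.44%. HKDC1, a further hexokinase, had signals of 797, 1127 and 1376 for HuCCT1 and 339, 558 and 531 for KKU-100, opposite in direction to HK2 in HuCCT1. PFKFB2, a relative of PFKFB3, rose under high dose in KKU-100, with 1.03.

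PDK4, a relative of PDK1, fell in KKU-100, with -1.45 (low dose) and -0.97 (high dose), and was below the filter in HuCCT1. Its KKU-100 signals were 60.1, 21.9 and 30.6. The treated arrays thus lay near or below the filter level of 28.9, and the size of the fall is uncertain. PDP1, the phosphatase that opposes these kinases, rose in KKU-100, with 0.73 (low dose) and 0.60 (high dose). Among 6 genes of the pentose phosphate pathway past the filter, RPIA, which makes ribose 5-phosphate, fell under low dose in HuCCT1, with -0.59, and 0 others passed 1.5-fold in any comparison. Of 4 genes of gluconeogenesis past the filter, PCK2, the mitochondrial enzyme that makes phosphoenolpyruvate, rose at both doses in both lines, with signals of 113, 238 and 529 for HuCCT1 and 97.2, 150.1 and 471 for KKU-100.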

How the data were processed

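Total RNA from 6 conditions was hybridised to Affymetrix arrays, 1 array each. The values deposited by the authors are linear signal intensity per probe set, which the submitters' processing notes credit to MAS5 with no version, although the methods name log2 normalisation in GeneSpring. The array medians lay within 28.8 to 29.3, so the values were only log2 transformed. The number of arrays limits the precision. The 62 control probe sets were left out. Of 54613 others, 41091 carry 1 symbol, 1801 several and 11721 none in the platform annotation. A probe set that matches several genes can move with another gene's RNA.

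The brightest probe set by mean signal stood for each gene. The filter on level was the 50th percentile of mean log2 signal, per line for fold changes and over all arrays for limma. Fold changes at 1.5-fold, the cutoff of the study, carry no p-value. limma 3.58.1 in R 4.3.3 (lmFit, eBayes with a trend, 3.42 median prior degrees of freedom) was adjusted by Benjamini-Hochberg over all genes tested. It was also run on simulated data with the same spread for every gene and equal effects in both lines. That run cannot check genes of unequal spread or responses that differ between the lines. Figures and tables used Python 3.11.15.

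The members, lists and tests were chosen with earlier results of these data known. Values on every array are given for members past 1.5-fold at both doses of a line, for those limma called and for HIF1A, and up to 4 genes of each further list are named by the largest change at the high dose. Promoter windows came from RefSeq. Alternatives were quantile normalisation, centring on the median, no filter or the 60th percentile, only probe sets specific to 1 gene, the median over probe sets, a 2-fold cutoff, eBayes without a trend or with the robust option, each array left out in turn, and the t-test of the methods.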

Additional observations from a re-analysis of the deposited data

Results flagged for a closer look

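In 8 members, both treated arrays lay on one side of solvent in HuCCT1 and on the other side in KKU-100. The share of all genes with this pattern was not counted, so the 8 cannot be set against it. The response in KKU-100 minus that in HuCCT1, in log2 with both doses together, was 1.47 for HK2, 0.90 for CA12, 0.78 for ENO2, 0.71 for PFKFB4, 0.69 for PFKM, 0.52 for HK1, 0.24 for PGAM1 and -0.20 for ALDOC. The limma interaction did not reach the threshold for any of the 8, with adjusted p from 0.604 to 0.862. For HK2 the KKU-100 values behind this difference were 0.03 and 0.01, close to 0. Also close to 0 were PFKFB4 (-0.004) and PFKM (-0.04) in HuCCT1 under low dose. The same held in KKU-100 for CA12 (0.03) under high dose and ALDOC (-0.02) under low dose. With quantile normalisation, these values of PFKFB4, PFKM and CA12 changed sign.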

How the results depend on the processing

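No change past 1.5-fold and no limma call changed direction under an alternative. Among the log2 fold changes of named genes, 10 alternative values changed sign, all from values inside the cutoff, such as VEGFA (0.31 to -0.15) and CA12 (0.34 to -0.06) in KKU-100 with the median over probe sets and SLC2A1 (-0.15 to 0.08) in KKU-100 with specific probe sets. With probe sets that can match several genes left out, 19 members remained past the filter. PFKFB3, KDM3A, SLC2A3, VEGFA, NDRG1 and PFKM were among those that dropped out. Their fold changes and line differences could thus not be checked in this way. In HuCCT1, 0 members were then higher under low and 0 under high dose, as SLC2A3 and VEGFA had dropped out. KKU-100 had 1 higher and 1 lower under low dose and 3 lower under high dose. Between the lines, 11 of the 19 members were called, against 52.4% of genes. For fold changes under the alternatives, the share of all genes is not given, so these counts cannot be set against it. With the median over the probe sets of a gene, 0 were higher under high dose in HuCCT1 and 4 under low dose in KKU-100, and these came inside the cutoff: in HuCCT1 KDM3A (-0.38), CA12 (-0.42, and -0.46 with specific probe sets), PFKFB4 (-0.40) and VEGFA (0.34) under high dose and ANKRD37 (-0.40) under low dose, and in KKU-100 KDM3A (-0.58) under low dose. It put past the cutoff SLC2A3 (-0.85) and PKM (-0.76) under high dose and CA12 (-0.65) under low dose in HuCCT1, and HK2 (0.80) and SLC2A3 (0.77) under low dose in KKU-100. NDRG1 in HuCCT1 crossed it with quantile normalisation (-0.57 under low dose) and with centring (-0.59 under high dose). At a 2-fold cutoff, HuCCT1 had 0 higher and 1 lower under low dose and 0 higher and 3 lower under high dose, and KKU-100 had 0 higher under low dose and 3 lower under high dose. Leaving out 1 array gave 0 to 5 members called under low dose and 0 to 4 under high dose, where each call above 0 came without a solvent array (ANKRD37 adjusted p = 0.0242 and 0.0317 under high dose), 14 to 24 between the lines, and 0 to 0 for the interaction, which could not be fitted without a solvent array. The line calls of ALDOC, ANKRD37, BNIP3L, EGLN3, HIF1A, HK2, LDHA and PFKL were each lost without at least 1 array. The cause of these changes was not tested, apart from the fewer genes or samples that an alternative leaves. Signals near the level filter, such as those of EGLN3, and near the top of the scale, such as those of GAPDH, limit what a fold change shows.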

Other observations

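LDHB, the lactate dehydrogenase subunit typical of tissues that use lactate, was chosen for mention after its values were seen. Its signals were 30.0, 21.9 and 22.9 on the solvent, low-dose and high-dose arrays of HuCCT1 and 9999, 10394 and 9515 on those of KKU-100. Its mean level was below the filter in HuCCT1 and far above it in KKU-100. HIF1A and LDHA differed between the lines by far less, with log2 differences of 0.21 and 0.16.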
